A study of Mus musculus with 18 samples.

Results

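The genes examined here encode the mouse MHC class II molecules, their invariant chain, the chaperones that load them with peptide, and their transactivator. There were 10 of them among the 44333 genes with values in every library, taken by gene symbol: Cd74, H2-Aa, H2-Ab1, H2-Eb1, H2-DMa, H2-DMb1, H2-DMb2, H2-Oa, H2-Ob and Ciita. Of these, 9 reached at least 1 FPKM (fragment numbers divided by the length of the transcript and by the depth of the library) in at least 3 of the 18 libraries and were tested, and Ciita did not. RNA had been sequenced from long-term haematopoietic stem cells (LT-HSC), the bone marrow cells that sustain blood formation, of mice with and without DERARE, an enhancer of the Hoxb cluster that responds to retinoic acid at a distance. The gate given by the submitters took lineage-negative, Sca-1-positive, c-Kit-positive cells that were negative for CD34 and Flk2 and low for CD49b. The 6 groups of 3 libraries were knockout reserve cells (KO Reserve), wild-type reserve cells (WT Reserve), knockout cells with the Wnt5a label, called a rescue of the knockout (KO Wnt5a), knockout control cells (KO Ctrl), wild-type cells labelled Wnt5a (Wnt5a) and wild-type cells (WT). How and for how long Wnt5a was given, and the age of the mice, are not given in the sources used here. The column headings of the reserve libraries carry the tag fl beside ko or wt, while those of the other libraries carry only ko or wt. It is therefore not known whether the reserve mice bear the same allele. The genotype label of KO Reserve names both wild type and ko, and the group was taken from its title. Its column headings also carry ko. No label says that replicates came from separate mice, so the spread behind each p-value is that between libraries and may be technical.

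Class II molecules are pairs of an alpha and a beta chain that display peptides from the endosomal pathway to CD4 T cells. They are made mainly by B cells, dendritic cells and macrophages. A new pair is held by the invariant chain, Cd74, which blocks the groove and steers the pair to endosomes. There proteases cut the invariant chain down, H2-DM exchanges the remaining fragment for peptide, and H2-DO holds H2-DM back. Transcription of these genes is driven by a shared promoter module of X and Y boxes, bound by RFX, CREB-family and NF-Y proteins, to which the coactivator Ciita is recruited. Interferon gamma induces Ciita, in part through Irf1, in many cell types.

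The smallest steps between the deposited values implied 20700000 to 41800000 fragments per library, at which 3 fragments on a transcript of 1 kb are worth 0.0717 to 0.145 FPKM. The first principal component, with 53.28% of the variance, set the 6 reserve libraries apart from the other 12. Of the genes behind the sort gate, Kit averaged 29.5 FPKM in KO Reserve and 28.8 FPKM in WT Reserve, and Ly6a, which encodes Sca-1, 21.9 FPKM in KO Reserve and 152 FPKM in WT Reserve. Cd34, whose protein was gated out, averaged 10.6 FPKM in KO Reserve, 67.7 FPKM in WT Reserve and 307 to 402 FPKM in the other groups. The deleted element is not a gene, so these values hold no check of the genotype labels. All members but Cd74 and Ciita lie in the class II region of chromosome 17. In GRCm38, H2-Ab1 (ENSMUSG00000073421) spans 34257689 to 34269419 on the plus strand and H2-Aa (ENSMUSG00000036594) spans 34282744 to 34287823 on the minus strand. Cd74 (ENSMUSG00000024610) spans 60803848 to 60812652 of chromosome 18, and Ciita (ENSMUSG00000022504) spans 10480059 to 10528418 of chromosome 16.

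The comparison of KO Reserve with WT Reserve asks what differs between the genotypes in the reserve libraries. All 9 tested class II genes were lower in KO Reserve, from the invariant chain, down by more than 3 log2 units, to H2-Ab1, down by less than 1. Limma on log2(FPKM + 1), with Benjamini-Hochberg adjustment over 14285 genes, called 9 of 9 lower at an adjusted p below 0.05, where 29.3% of all genes were called lower. Their median log2 fold change was -1.44, beside -0.17 over all genes. The 3 KO Reserve values lay below the 3 WT Reserve values for 9 of 9, as they did for 30.7% of all genes.

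Cd74 stood at 22.9, 20.0 and 12.7 FPKM in KO Reserve, against 245, 221 and 216 FPKM in WT Reserve. It was the most abundant class II transcript of WT Reserve, and no KO Reserve library came near any of those values. The log2 fold change was -3.59 (SE 0.30, adjusted p = 3.33e-07 with limma). The microRNA gene Mir5107 lies inside Cd74 on the same strand and was listed at 0 in KO Reserve and at 36.5 FPKM on average in WT Reserve. Fragments of the microRNA gene and of its host cannot be told apart.

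H2-Aa, the alpha chain of I-A, stood at 10.5, 7.55 and 4.74 FPKM in KO Reserve, against 89.8, 51.5 and 57.8 FPKM in WT Reserve. Its partner H2-Ab1, the I-A beta chain, stood at 82.9, 64.7 and 62.8 FPKM in KO Reserve, against 149, 93.7 and 115 FPKM in WT Reserve. The chains of one heterodimer thus differed by unequal amounts, with log2 fold changes of -2.99 for H2-Aa (SE 0.31, adjusted p = 2.1e-06) and -0.74 for H2-Ab1 (SE 0.18, adjusted p = 0.00339, limma). H2-Ab1 was the most abundant class II transcript of KO Reserve. H2-Eb1, the beta chain of I-E (ENSMUSG00000060586), stood at 2.68, 1.70 and 1.32 FPKM in KO Reserve, against 30.9, 12.6 and 21.9 FPKM in WT Reserve. Its log2 fold change of -2.92 (SE 0.31, adjusted p = 2.1e-06, limma) was close to that of H2-Aa. The alpha chain partner of H2-Eb1, H2-Ea, was not analysed here, and the pseudogene form H2-Ea-ps was listed at 0 in all 18 libraries.

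The peptide exchange factor H2-DM is a pair of H2-DMa with either H2-DMb1 or H2-DMb2. H2-DMa stood at 48.3, 53.1 and 48.7 FPKM in KO Reserve, against 119, 111 and 89.9 FPKM in WT Reserve, and its log2 fold change was -1.07 (SE 0.12, adjusted p = 3.97e-06, limma). H2-DMb1 stood at 5.31, 7.32 and 4.70 FPKM in KO Reserve, against 27.2, 19.5 and 18.5 FPKM in WT Reserve, with a log2 fold change of -1.74 (SE 0.16, adjusted p = 7.09e-07, limma). All 3 KO Reserve values of H2-DMb1 were also below every one of the 12 libraries outside the reserve set, which ran from 10.06 to 19.2 FPKM. H2-DMb2 stood at 1.77, 2.62 and 2.28 FPKM in KO Reserve, against 9.70, 8.78 and 5.33 FPKM in WT Reserve, where it was the scarcest of the tested genes (limma log2 fold change -1.44, SE 0.20, adjusted p = 3.45e-05). The closest transcripts of H2-DMb1 and H2-DMb2, of 1404 and 1424 bases, were 76.3% identical in an alignment of their whole length. The libraries keep no strand, and H2-DMa shares bases with Brd2 on the other strand, which moved the opposite way, as given below.

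H2-Oa and H2-Ob are the chains of H2-DO, the inhibitor of H2-DM, which is most used by B cells. H2-Oa stood at 5.91, 6.89 and 4.92 FPKM in KO Reserve, against 17.1, 15.8 and 16.2 FPKM in WT Reserve (limma log2 fold change -1.34, SE 0.26, adjusted p = 0.000687). H2-Ob stood at 14.4, 8.62 and 9.18 FPKM in KO Reserve, against 25.1, 31.0 and 30.2 FPKM in WT Reserve (limma log2 fold change -1.37, SE 0.27, adjusted p = 0.000691). Both chains therefore differed by similar amounts, and neither gene's groups overlapped. The antisense gene BC051537 shares bases with H2-Oa and averaged 0.854 FPKM in KO Reserve and 1.10 FPKM in WT Reserve.

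Ciita, the coactivator of all these genes, was below 1 FPKM in every library. It stood at 0.077, 0.024 and 0.064 FPKM in KO Reserve, against 0.301, 0.068 and 0.278 FPKM in WT Reserve. The WT Reserve library with 0.068 FPKM fell inside the KO Reserve range. The other groups ran from 0.057 to 0.216 FPKM, so none of the 6 groups stood clear of the others. On its longest transcript of 6007 bases these levels are worth 4.26 to 47.7 fragments per library, and Dexi, which shares bases with Ciita on the other strand, had group means of 12.9 to 21.6 FPKM. Ciita did not pass the filter on low values and was not tested.

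**Figure D1:**
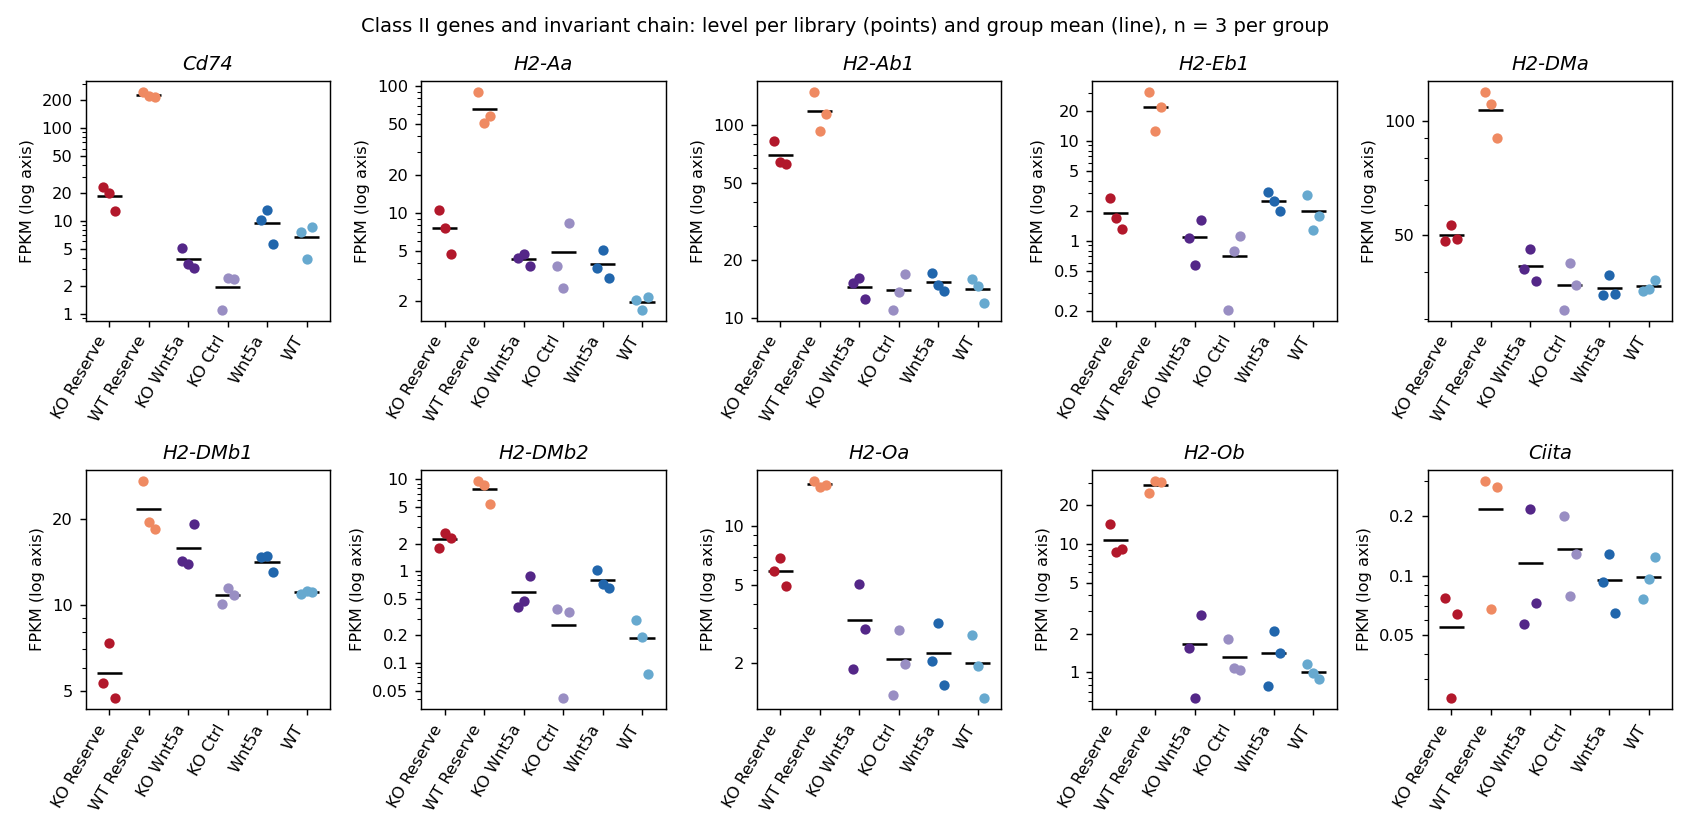
FPKM of each of the 10 genes on a log axis, 1 point per library and a line at the group mean, for 6 groups of 3 libraries. The WT Reserve points lie above the KO Reserve points in all panels but that of Ciita, where 1 WT Reserve library at 0.068 FPKM falls among them.

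**Figure D2:**
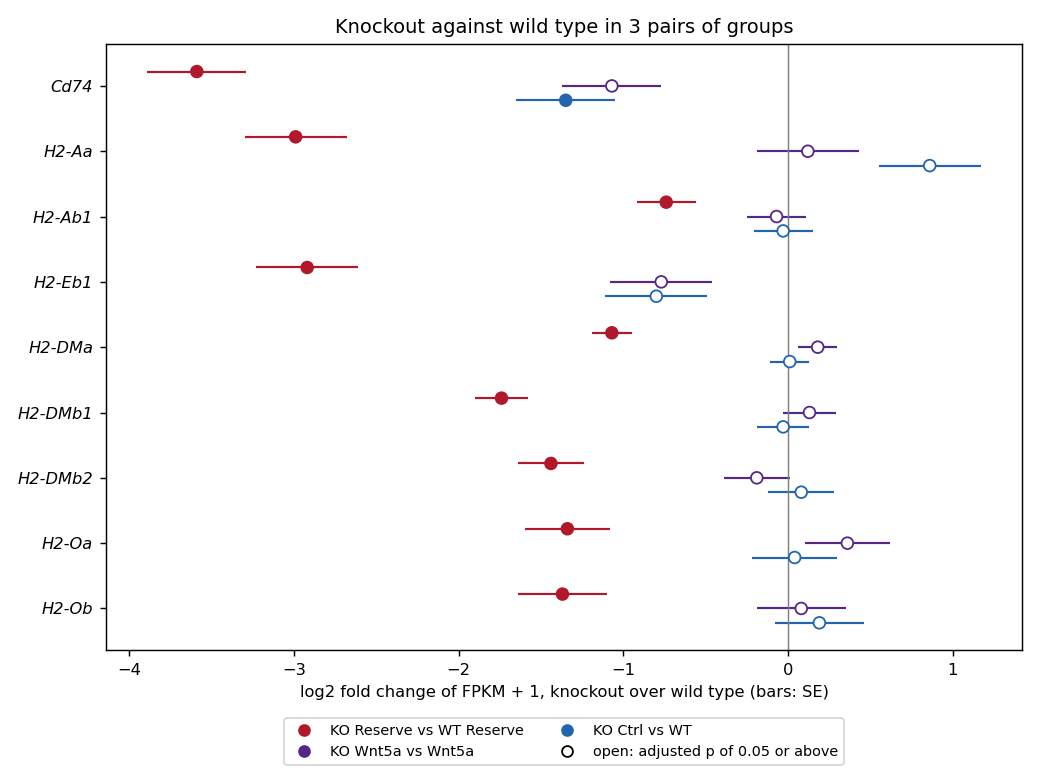
Log2 fold change of FPKM + 1 with its SE for the 9 tested genes in 3 comparisons of knockout with wild-type libraries, 3 libraries per group, with open symbols where the limma adjusted p was 0.05 or more. All 9 are below 0 for KO Reserve over WT Reserve, and Cd74, at -1.35, is the 1 filled symbol for KO Ctrl over WT.

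Since the median of all genes was itself at -0.17, the comparison was repeated on other scales. With quantile normalization the median of all genes was 0.03 and the split of called genes was 3154 higher and 2764 lower, in place of 1708 and 4191. All 9 tested class II genes were still called lower, with Cd74 at -3.22 and H2-Ab1 at -0.54. With median-ratio scaling, where the median of all genes was 0.02, Cd74 was at -3.34 and H2-Ab1 at -0.49, and again 9 of 9 were called lower.

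The reserve libraries also held transcripts of other blood cells, which differed between the genotypes. In bulk samples fewer cells of a type and less RNA per cell cannot be told apart. The 16 B cell markers summed to 1890 to 2320 FPKM in KO Reserve and 2660 to 2990 FPKM in WT Reserve, beside 39.4 to 112 FPKM in the other 12 libraries. Of the 14 tested B cell markers 0 were called higher and 4 lower, where 29.3% of all genes were called lower. With median-ratio scaling 2 were higher and 2 lower, and with quantile normalization 2 were higher and 5 lower. The 4 were Cd79b (-0.60, SE 0.13) and Cd79a (-0.63, SE 0.22), the signalling chains of the B cell receptor, Ighm, the mu heavy chain (-1.01, SE 0.31), and the scaffold gene Bank1 (-0.73, SE 0.19). The calls of Cd79b and Bank1 held under the alternatives run besides a minimum change. That of Ighm ended with median-ratio scaling, with these 6 libraries alone, and without KO Reserve replicate 2 or WT Reserve replicate 3. That of Cd79a ended under 8 of 27 alternatives, among them median-ratio scaling and leaving out replicate 2 or 3 of KO Reserve or of WT Reserve. The list's median was -0.45, beside -0.17 over all genes. The early B cell genes Vpreb1, a surrogate light chain, and Ebf1, a B lineage transcription factor, averaged 370 and 29.6 FPKM in KO Reserve and 390 and 25.1 FPKM in WT Reserve. Markers of mature B cells were low, Ms4a1, which encodes CD20, averaging 0.490 FPKM in KO Reserve and 1.02 FPKM in WT Reserve.

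Markers of the other class II-bearing cells were lower in sum. The 16 monocyte and macrophage markers summed to 153 to 184 FPKM in KO Reserve and 498 to 724 FPKM in WT Reserve, where the other 12 libraries held 105 to 156 FPKM. Of 10 tested, 0 were called higher and 6 lower, where 29.3% of all genes were called lower. Most of the sum was lysozyme, Lyz2, at 110 FPKM in KO Reserve and 493 FPKM in WT Reserve. The defining macrophage markers Adgre1 and Csf1r averaged 0.212 and 0.176 FPKM in KO Reserve and 0.269 and 0.438 FPKM in WT Reserve. The 16 dendritic cell markers summed to 81.4 to 93.1 FPKM in KO Reserve and 90.8 to 149 FPKM in WT Reserve, ranges that overlap, with 83.4 to 120 FPKM elsewhere. Of 10 tested, 1 was called higher and 5 lower, where 29.3% of all genes were called lower. Itgax, which encodes CD11c, averaged 0.022 FPKM in KO Reserve and 0.133 FPKM in WT Reserve. Fcgr1 was the only one of these markers at 0 in all 3 libraries of a reserve group, KO Reserve.

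Other lists moved as well. Granulocyte markers summed to 2530 to 3800 FPKM in KO Reserve and 4810 to 10600 FPKM in WT Reserve, erythroid markers to 5800 to 6530 FPKM in KO Reserve and 3620 to 5260 FPKM in WT Reserve. T and NK cell markers summed to 128 to 155 FPKM in KO Reserve and 279 to 361 FPKM in WT Reserve. Mast cell and basophil markers summed to 38.7 to 56.8 FPKM in KO Reserve and 153 to 182 FPKM in WT Reserve, and megakaryocyte markers to 85.1 to 139 FPKM in KO Reserve and 204 to 223 FPKM in WT Reserve. The LT-HSC list summed to 247 to 296 FPKM in KO Reserve and 565 to 743 FPKM in WT Reserve. This list also holds Cd48, and Cd34 and Flt3 (the gene of Flk2), whose proteins were gated out. Cd34, with the levels given above, is part of each sum, so the sums are not of stem cell genes alone. In the other 12 libraries the sums were 19.2 to 179 FPKM for granulocytes, 42.9 to 55.8 FPKM for erythroid cells and 21.3 to 73.6 FPKM for T and NK cells. They were 52.5 to 229 FPKM for mast cells and basophils, 7420 to 31000 FPKM for megakaryocytes and 641 to 822 FPKM for the LT-HSC list. The female-specific RNA Xist ran from 4.99 to 8.64 FPKM in KO Reserve and from 0.015 to 0.802 FPKM in WT Reserve, and the Y-linked gene Ddx3y from 13.6 to 14.2 FPKM in KO Reserve and from 20.8 to 27.9 FPKM in WT Reserve. The part of these differences in the class II result was not tested.

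**Figure D3:**
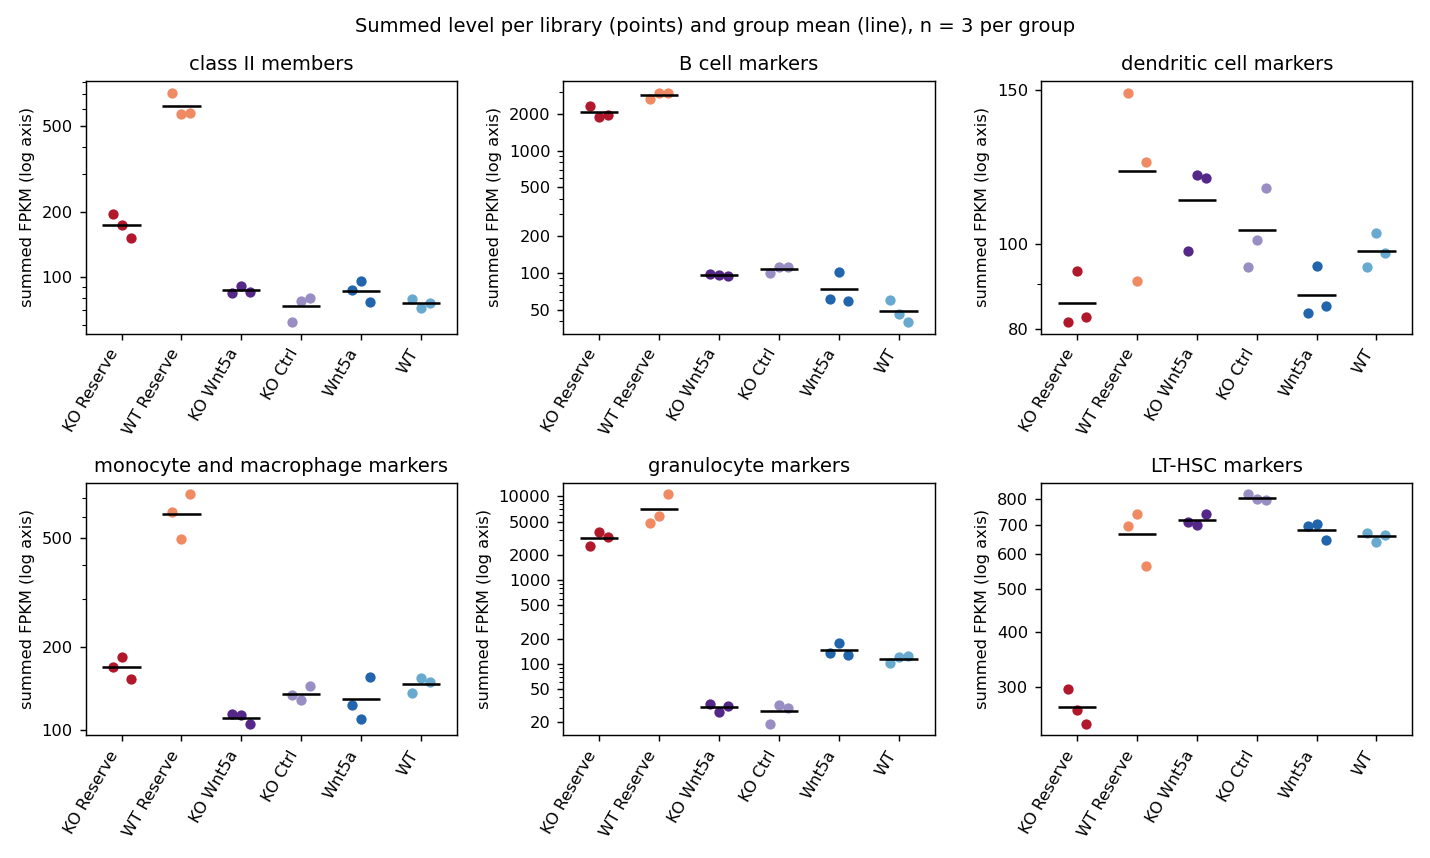
Summed FPKM per library on a log axis for the 10 class II genes and 5 marker lists, with a line at each group mean, 3 libraries per group. The class II sum was 151 to 195 in KO Reserve and 565 to 714 in WT Reserve, while the dendritic cell sums of these groups overlap.

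Along the class II region the difference was not uniform, and genes of other function stand between the members. Of 11 neighbours on the list that had values, 6 were tested, of which 1 was called higher and 3 lower in KO Reserve (median -0.27, beside -0.17 over all genes). With median-ratio scaling 1 was higher and 1 lower, and with quantile normalization 1 was higher and 2 lower. Over all 14285 tested genes, 29.3% were called lower and 1708 higher without either scaling. Psmb8, an interferon-induced proteasome subunit that lies between H2-DMb1 and H2-Ob, stood at 219, 241 and 195 FPKM in KO Reserve, against 522, 520 and 454 FPKM in WT Reserve (limma log2 fold change -1.19, SE 0.14, adjusted p = 8.82e-06). Psmb9, a second such subunit, differed by -0.44 (SE 0.12, adjusted p = 0.00853), but median-ratio scaling ended its call (-0.19). The peptide transporter gene Tap2 differed by -0.84 (SE 0.27, adjusted p = 0.0189), and was no longer called on either other scale, with no filter, with these 6 libraries alone, or without KO Reserve replicate 1, KO Reserve replicate 3, WT Reserve replicate 1 or WT Reserve replicate 3. Brd2, a bromodomain gene between H2-Oa and H2-DMa, was called higher (log2 fold change 0.47, SE 0.14, adjusted p = 0.0103), and this call ended with these 6 libraries alone and without KO Reserve replicate 3 or WT Reserve replicate 2. Tap1, the other transporter chain, was at -0.09 (SE 0.22) and was not called.

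**Figure D4:**
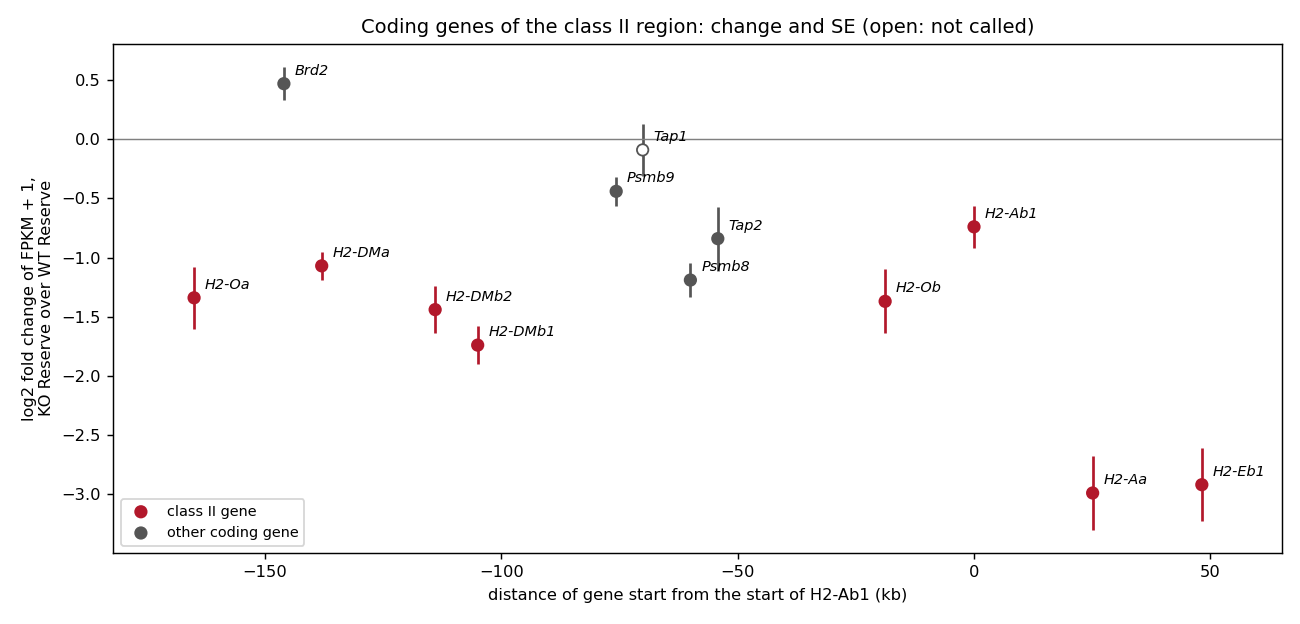
Log2 fold change of FPKM + 1 with its SE, KO Reserve over WT Reserve, of the tested coding genes of the class II region against the distance of their start from that of H2-Ab1 in kb. H2-Aa and H2-Eb1, at 25.1 and 48.2 kb, have the lowest values of -2.99 and -2.92, and Brd2 lies above 0 at 0.47.

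The promoter letters around the starts of these genes are shown because they fell together and share a known promoter module. RefSeq windows of 250 bases before to 50 after a start, on GRCm38.p6, matched 7 of the 10 genes by symbol, in 8 windows. The stretches below run from 40 bases before a Y box core to its end and a few bases on, 5′ to 3′ along the gene, with capitals marking the letters searched: TGATTGG, the Y box core bound by NF-Y, and either AAC, any 2 bases and ATGATG, an X box with its X2 part, or TGACGTCA, the CREB-type element. These letters were chosen on sight of the class II windows, so their presence here is a description and not a test.
H2-Oa: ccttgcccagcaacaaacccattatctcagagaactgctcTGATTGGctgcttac
H2-DMb2: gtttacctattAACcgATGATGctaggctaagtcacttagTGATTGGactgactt
H2-DMb1: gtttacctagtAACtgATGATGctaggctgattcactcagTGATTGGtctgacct
H2-Ob: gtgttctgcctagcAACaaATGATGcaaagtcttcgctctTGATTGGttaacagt
H2-Aa: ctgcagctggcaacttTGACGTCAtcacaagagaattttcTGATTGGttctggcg
H2-Eb1: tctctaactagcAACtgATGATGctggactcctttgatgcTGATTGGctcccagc

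The 6 stretches lie on chromosome 17. They are chr17:34092294-34092348 for H2-Oa, chr17:34145117-34145171 for H2-DMb2, chr17:34153088-34153142 for H2-DMb1, chr17:34238806-34238860 for H2-Ob and chr17:34305766-34305820 for H2-Eb1, all on the plus strand, and chr17:34287859-34287913 on the minus strand for H2-Aa. Searched on both strands, TGATTGG was in the windows of 6 of the 7 genes. It began 45 bases before the RefSeq start in H2-Oa, 50 in H2-Aa, 59 in H2-Ob, 61 in H2-Eb1, 63 in H2-DMb1 and 92 in H2-DMb2. The GENCODE spans can start elsewhere, at 34143307 for H2-DMb2 and at 34153072 for H2-DMb1, upstream of these stretches. It was also in 7.8% of 32817 RefSeq windows of the same length. The X box letters were in 4 of the 7 genes and in 0.137% of all windows, and both motifs together in 9 windows in all, or 0.0274%. TGACGTCA was in H2-Aa and in 1.79% of all windows. The space between the first motif and the Y box was 15 to 18 bases in the 5 genes that hold both kinds. The pair H2-DMb1 and H2-DMb2, which fell by 1.74 and 1.44 on the log2 scale, have nearly the same letters here. The 2 windows of H2-DMa held none of these letters, and H2-DMa fell by 1.07. Its GENCODE start, at 34119541, lies in neither window and was not searched.

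Of the regulators of class II transcription, 17 of 18 listed genes had values and 15 were tested. In KO Reserve 10 were called lower and 0 higher, where 29.3% of all genes were called lower. The list's median was -0.50, beside -0.17 over all genes. With quantile normalization, and likewise with median-ratio scaling, 5 were called lower and 0 higher. These scales called 2764 and 2800 of 14285 genes lower. Irf1, the interferon-induced activator of Ciita, stood at 12.5, 9.07 and 9.40 FPKM in KO Reserve, against 40.03, 39.1 and 33.9 FPKM in WT Reserve (limma log2 fold change -1.78, SE 0.14, adjusted p = 9.96e-08). Spi1, which encodes the myeloid and B lymphoid factor PU.1, stood at 31.8, 25.6 and 13.5 FPKM in KO Reserve, against 112, 94.4 and 99.3 FPKM in WT Reserve (limma log2 fold change -2.14, SE 0.20, adjusted p = 9.19e-07). Neither gene's groups overlapped. Nfyc, a subunit of NF-Y, differed by -0.66 (SE 0.13, adjusted p = 0.00058, limma). These 3 calls held under the 27 alternatives run besides a minimum change, where the log2 fold change of Nfyc was between -0.83 and -0.39.

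Genes of invariant chain cleavage and class II trafficking moved both ways. Of 14 tested genes of this list 7 were called lower and 2 higher in KO Reserve (median -0.40). Of all 14285 genes 29.3% were called lower and 1708 higher. Median-ratio scaling gave 5 lower and 4 higher, where it called 2800 lower and 3166 higher of all genes. Quantile normalization gave 7 lower and 3 higher, where it called 2764 lower and 3154 higher of all genes. Ctsh, the lysosomal protease cathepsin H, stood at 2.23, 3.60 and 1.35 FPKM in KO Reserve, against 27.6, 19.1 and 18.2 FPKM in WT Reserve (limma log2 fold change -2.77, SE 0.34, adjusted p = 1.12e-05). Ctsb, which encodes cathepsin B, fell by 0.79 (SE 0.14) and Rab7, a GTPase of late endosomes, by 0.69 (SE 0.14) on the log2 scale. Cd44, a surface partner of the invariant chain in its role as receptor for the cytokine MIF, rose by 0.49 (SE 0.10, adjusted p = 0.00119, limma). The other gene called higher, named after its values were seen, was Ifi30, a lysosomal thiol reductase that unfolds antigens, with 42.7, 46.1 and 48.9 FPKM in KO Reserve, against 28.8, 33.2 and 30.8 FPKM in WT Reserve.

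Costimulatory and adhesion genes that antigen-presenting cells show to T cells were scarce. Of 9 listed genes 4 passed the filter. Of these, 4 of 4 were called lower in KO Reserve (3 with quantile normalization), with a median of -1.47. Of all genes 29.3% were called lower. Cd274, which encodes PD-L1, stood at 1.56, 1.22 and 0.806 FPKM in KO Reserve, against 5.21, 5.95 and 4.51 FPKM in WT Reserve (limma log2 fold change -1.51, SE 0.19, adjusted p = 1.34e-05). Icam1, the ligand of LFA-1, differed by -1.74 (SE 0.22, adjusted p = 1.58e-05) and Cd86, a ligand of CD28, by -1.43 (SE 0.29, adjusted p = 0.000805). Icosl, the ligand of ICOS, was at -0.64 (SE 0.23, adjusted p = 0.0351), and this call ended with quantile normalization, with no filter, with these 6 libraries alone, and without WT Reserve replicate 1, WT Reserve replicate 3 or any 1 of the KO Reserve libraries.

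The members did not keep fixed proportions to each other. FPKM are set per length of transcript, so ratios of 2 genes within a library can be read, as a description. The ratio of Cd74 to H2-Ab1 was 0.276, 0.309 and 0.202 in KO Reserve and 1.64, 2.36 and 1.87 in WT Reserve. It was 0.338, 0.212 and 0.250 in KO Wnt5a, against 0.591, 0.866 and 0.408 in Wnt5a, and 0.0994, 0.175 and 0.138 in KO Ctrl, against 0.475, 0.266 and 0.711 in WT. In each of these 3 pairs all knockout libraries lay below all wild-type libraries. The ratio of H2-Aa to H2-Ab1 was 0.127, 0.117 and 0.0756 in KO Reserve and 0.601, 0.550 and 0.502 in WT Reserve. Outside the reserve set it was higher in each of the 3 KO Ctrl libraries (0.343, 0.186 and 0.487) than in the WT libraries (0.128, 0.118 and 0.181). The ratios of 0.289, 0.297 and 0.303 in KO Wnt5a and of 0.213, 0.344 and 0.222 in Wnt5a overlapped. The ratio of H2-DMb1 to H2-DMa was 0.110, 0.138 and 0.0965 in KO Reserve and 0.228, 0.176 and 0.205 in WT Reserve, all below the 0.273 to 0.506 of the other 12 libraries.

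**Figure D5:**
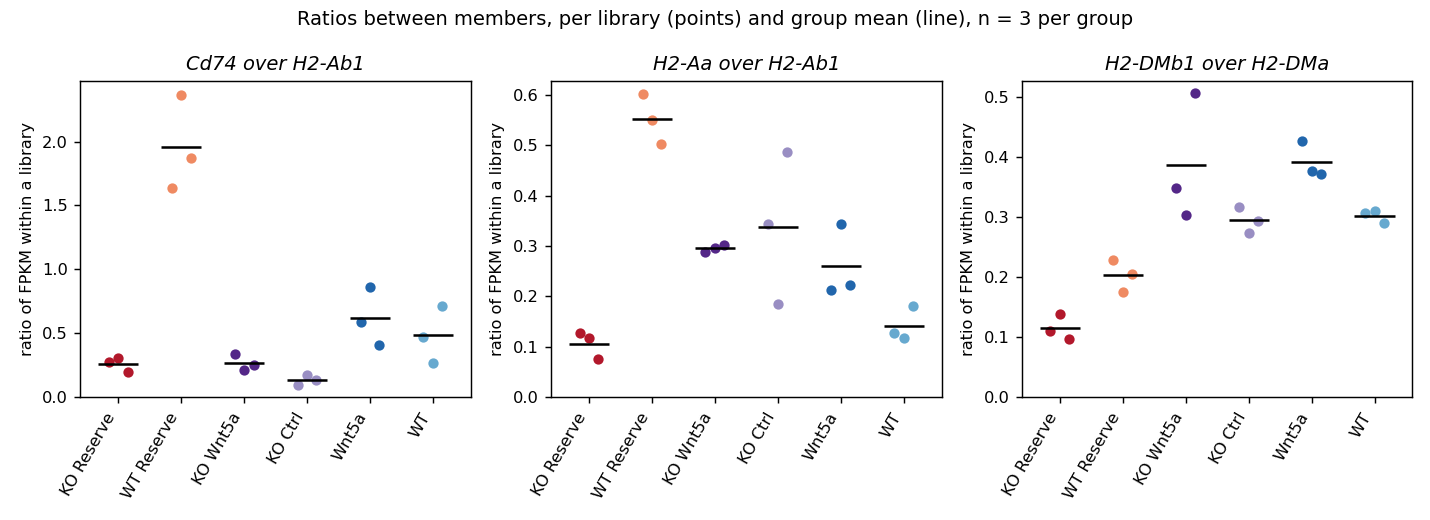
Ratio of the FPKM of 2 genes within a library, 1 point per library with a line at the group mean, 3 libraries per group. WT Reserve has the highest ratio of Cd74 to H2-Ab1, 1.64 to 2.36, and KO Reserve has the lowest ratio of H2-DMb1 to H2-DMa, 0.0965 to 0.138.

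In WT Reserve against WT, 9 of 9 tested members were called higher, where 30.8% of all genes were called higher, and their median log2 fold change was 2.89, beside 0.06 over all genes. H2-DMb2 passed the filter on low values through the reserve libraries, with 0 WT libraries at 1 FPKM or more, so its call adds no support. Cd74 stood at 245, 221 and 216 FPKM in WT Reserve, against 7.56, 3.88 and 8.55 FPKM in WT (limma log2 fold change 4.95, SE 0.30, adjusted p = 9.53e-10). The differences ran down through H2-Aa (4.46, SE 0.31), H2-Ob (3.88, SE 0.27) and H2-Ab1 (2.97, SE 0.18) to H2-DMa (1.51, SE 0.12) and H2-DMb1 (0.89, SE 0.16). The set of reserve libraries and any batch of sort or sequencing cannot be told apart. In order of mean FPKM, Cd74, H2-Ab1, H2-DMa and H2-Aa led in WT Reserve, and H2-DMa, H2-Ab1 and H2-DMb1 led in WT. Of 15 regulators 9 were called higher and 0 lower, among them Ifngr1, a chain of the interferon gamma receptor (2.14, SE 0.15), Irf1 (1.47, SE 0.14) and Ifngr2, the second chain (1.12, SE 0.20). Of 14 processing genes 7 were called higher and 6 lower. Ctss, cathepsin S, the main protease of the invariant chain in B and dendritic cells, stood at 35.2, 39.2 and 31.3 FPKM in WT Reserve, against 2.66, 1.49 and 1.08 FPKM in WT (limma log2 fold change 3.76, SE 0.29, adjusted p = 1.18e-08). Ctsd, which encodes cathepsin D, moved the other way (-2.67, SE 0.19). Markers of many cell types moved as well. Those called higher were 12 of 14 tested B cell markers (median 3.84), 11 of 11 granulocyte markers (median 6.84), 9 of 9 erythroid markers (median 5.76), 5 of 5 T and NK cell markers (median 2.65), 8 of 10 monocyte and macrophage markers (median 1.76) and 6 of 10 dendritic cell markers (median 1.15). Of the megakaryocyte markers 8 of 8 were called lower (median -4.30), where 3990 of 14285 genes were called lower. Of 13 tested genes of the LT-HSC list 9 were called higher and 3 lower. Of 6 mast cell and basophil markers 1 was called higher and 2 lower. Their part in the class II result was not tested. This comparison shares the WT Reserve libraries with that of KO Reserve with WT Reserve.

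KO Reserve against KO Ctrl gave a different picture for some members. Of 9 tested, 7 were called higher, where 24.8% of all genes were called higher, and 1 lower, where 40.4% of all genes were called lower. H2-DMb2, 1 of the 7, passed the filter through the reserve libraries, with 0 KO Ctrl libraries at 1 FPKM or more, so its call adds no support. The median of all genes was -0.19, or 0.05 with median-ratio scaling and 0.00 with quantile normalization, on both of which 8 members were called higher and 1 lower. This comparison shares libraries with that of KO Reserve with WT Reserve. H2-Ob stood at 14.4, 8.62 and 9.18 FPKM in KO Reserve, against 1.81, 1.08 and 1.05 FPKM in KO Ctrl (limma log2 fold change 2.32, SE 0.27, adjusted p = 1.01e-06). H2-Ab1 stood at 82.9, 64.7 and 62.8 FPKM in KO Reserve, against 11.04, 13.7 and 17.03 FPKM in KO Ctrl (2.26, SE 0.18). Cd74 was higher by 2.72 (SE 0.30), H2-DMb2 by 1.36 (SE 0.20), H2-Oa by 1.18 (SE 0.26) and H2-DMa by 0.44 (SE 0.12). H2-Eb1 was higher by 0.78 (SE 0.31, adjusted p = 0.0341, limma), a call that ended without KO Ctrl replicate 1 or 2, without KO Reserve replicate 1 or 2, with library weights and with no filter. H2-DMb1 was lower, at 5.31, 7.32 and 4.70 FPKM in KO Reserve, against 10.1, 11.5 and 10.9 FPKM in KO Ctrl (limma log2 fold change -0.82, SE 0.16, adjusted p = 0.000321). H2-Aa was at 0.61 (SE 0.31, adjusted p = 0.0921) and was not called, although both other scales called it, as did the fits without KO Ctrl replicate 3 or KO Reserve replicate 3. Of 15 regulators 3 were called higher and 7 lower, in place of which either other scale gave 4 and 3. Those with the smallest p were Ifngr1 (1.48, SE 0.15), Jak1, a kinase of interferon receptors (-0.79, SE 0.09), Spi1 (-1.74, SE 0.20) and Nfyc (-0.79, SE 0.13). Markers called higher were 10 of 14 tested for B cells (median 2.83, with 1 lower), 11 of 11 for granulocytes (median 6.67), 9 of 9 for erythroid cells (median 5.68), 4 of 5 for T and NK cells (median 1.16) and 5 of 10 for monocytes and macrophages (median 0.62, with 2 lower). Markers called lower were 8 of 8 for megakaryocytes (median -4.30) and 5 of 10 for dendritic cells (median -0.39, with 2 higher). Of the LT-HSC list 9 of 13 were called lower (median -1.65, with 3 higher). For mast cells and basophils 2 of 6 were called higher and 1 lower. Their part in the class II result was not tested.

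The difference between the genotype effects was tested directly, as KO Reserve minus WT Reserve less KO Ctrl minus WT. It was below 0 for 9 of 9 tested members at an adjusted p below 0.05 (limma), where 22.9% of all genes were called below 0. H2-DMb2 passed the filter on low values through the reserve libraries, with 0 KO Ctrl and 0 WT libraries at 1 FPKM or more. Its call here thus adds no support. H2-Aa had the lowest value (-3.85, SE 0.44, adjusted p = 1.49e-05), as the difference of -2.99 between the reserve groups and 0.86 between KO Ctrl and WT. All genes had a median of -0.22, or 0.04 with median-ratio scaling and 0.05 with quantile normalization, on both of which 8 of 9 members were called below 0, all but H2-Ab1. H2-Ab1 had the weakest call (-0.71, SE 0.26, adjusted p = 0.0441), which did not hold under 17 of 27 alternatives.

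In KO Ctrl against WT, which compares the genotypes without the reserve or Wnt5a label, 1 of 9 members was called, and it was lower, where 1.12% of all genes were called lower and 2.65% in either direction. Cd74 stood at 1.10, 2.41 and 2.34 FPKM in KO Ctrl, against 7.56, 3.88 and 8.55 FPKM in WT. All 3 KO Ctrl values were below the WT values. The log2 fold change was -1.35 (SE 0.30, adjusted p = 0.0244, limma), and it lay between -1.72 and -1.12 under the 28 alternatives, with adjusted p between 0.0107 and 0.144. The call ended without KO Ctrl replicate 1, KO Ctrl replicate 2, WT replicate 1 or WT replicate 3, with no filter, and with these 6 libraries alone. Xist ran from 3.64 to 6.54 FPKM in KO Ctrl and from 2.46 to 2.76 FPKM in WT. Ddx3y ran from 5.09 to 7.05 FPKM in KO Ctrl and from 6.72 to 8.475 FPKM in WT. The part of this difference in the result was not tested.

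Both of the other differences at an unadjusted p below 0.05 failed the correction. H2-Aa stood at 3.78, 2.55 and 8.29 FPKM in KO Ctrl, against 2.04, 1.72 and 2.18 FPKM in WT, and was thus higher in all 3 KO Ctrl libraries, of which replicate 3 was far above the rest (0.86, SE 0.31, adjusted p = 0.149). H2-Eb1 stood at 0.205, 0.789 and 1.13 FPKM in KO Ctrl, against 2.88, 1.28 and 1.76 FPKM in WT (-0.80, SE 0.31, adjusted p = 0.175). The members' values lay wholly above those of WT for 1 gene and wholly below for 2, where this held for 15.9% and 11.4% of all genes. The members' median was 0.01, beside 0.04 over all genes. H2-DMa, H2-DMb1 and H2-Ab1 were within 0.03 of 0 on the log2 scale with SE of 0.12 to 0.18. B cell markers summed to a median of 112 FPKM in KO Ctrl and 46.1 FPKM in WT without overlap, with 4 of 14 called higher, among them Igll1, a surrogate light chain (1.47, SE 0.22). Of all 14285 genes 218 were called higher and 160 lower. The LT-HSC list was also higher without overlap, at 798 to 822 FPKM in KO Ctrl and 641 to 671 FPKM in WT. Granulocyte markers were lower, at 19.2 to 32.5 FPKM in KO Ctrl and 103 to 123 FPKM in WT. T and NK cell, erythroid and megakaryocyte sums were lower too, and those of the other lists overlapped. Of 6 mast cell and basophil markers 3 were called lower. The part of these differences was not tested. Of the pathway lists 1 gene was called, Mif, the cytokine that binds Cd74, with 619, 701 and 733 FPKM in KO Ctrl, against 866, 927 and 909 FPKM in WT (-0.40, SE 0.08, adjusted p = 0.011, limma), and without WT replicate 3 this call ended.

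KO Wnt5a against Wnt5a compares the genotypes under the Wnt5a label. Limma called 0 of 9 members, where 3.23% of all genes were called in either direction, and 2 were lower at an unadjusted p below 0.05. The share of all genes at that unadjusted p is not given here, so the count is a description. Cd74 stood at 5.11, 3.41 and 3.12 FPKM in KO Wnt5a, against 10.1, 12.9 and 5.66 FPKM in Wnt5a. The groups did not overlap, and the log2 fold change of -1.07 (SE 0.30) missed the threshold with an adjusted p of 0.0652 in limma. It passed with library weights, with either other scale, and without WT replicate 2 or Wnt5a replicate 3, adjusted p lying between 0.0115 and 0.227 over the 28 alternatives. H2-Eb1 stood at 1.07, 0.570 and 1.63 FPKM in KO Wnt5a, against 3.05, 2.53 and 1.97 FPKM in Wnt5a, again without overlap (-0.77, SE 0.31, adjusted p = 0.197, limma). All 3 KO Wnt5a values thus lay below those of Wnt5a for 2 of 9 members, as they did for 10.2% of all genes. The other 7 tested members lay between -0.19 and 0.36 and their groups overlapped. B cell markers summed to 93.8 to 96.9 FPKM in KO Wnt5a and 58.9 to 102 FPKM in Wnt5a, ranges that overlap. Granulocyte markers summed to 26.9 to 33.4 FPKM in KO Wnt5a and 127 to 179 FPKM in Wnt5a, with 3 of 11 called lower and 0 higher. Of 6 mast cell and basophil markers 4 were called lower and 1 higher (median -1.97). Over all 14285 genes 260 were called lower and 201 higher. Megakaryocyte sums were also lower without overlap, dendritic cell sums were higher without overlap, and those of the other lists overlapped. Xist ran from 4.04 to 6.79 FPKM in KO Wnt5a and from 2.21 to 2.87 FPKM in Wnt5a. Ddx3y ran from 4.815 to 5.97 FPKM in KO Wnt5a and from 7.83 to 9.35 FPKM in Wnt5a. The part of these differences in the class II values was not tested.

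Wnt5a against WT asks what differs with the Wnt5a label in wild-type cells. Limma called 0 of 9 members, where 0.049% of all genes were called, and 2 were higher at an unadjusted p below 0.05. The share of all genes at that unadjusted p is not given here, so the count is a description. H2-DMb2 stood at 1.03, 0.726 and 0.663 FPKM in Wnt5a, against 0.293, 0.190 and 0.075 FPKM in WT (0.61, SE 0.20, adjusted p = 0.486). It passed the filter on low values through the reserve libraries, with 1 Wnt5a and 0 WT libraries at 1 FPKM or more. H2-Aa stood at 3.64, 5.13 and 3.09 FPKM in Wnt5a, against 2.04, 1.72 and 2.18 FPKM in WT (0.72, SE 0.31, adjusted p = 0.596). For both genes, and for H2-DMb1 with 14.8, 14.8 and 12.98 FPKM in Wnt5a, against 10.95, 11.2 and 11.04 FPKM in WT, all 3 Wnt5a values lay above the WT values, as they did for 11.7% of all genes. With library weights these 3 members passed the threshold, where 1541 of 14285 genes were called, 832 of them higher. Cd74 was at 0.46 (SE 0.30) and its groups overlapped.

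KO Wnt5a against KO Ctrl asks the same in knockout cells. Limma called 0 of 9 members, where 1.02% of all genes were called, and 2 were higher at an unadjusted p below 0.05. The share of all genes at that unadjusted p is not given here, so the count is a description. H2-DMb1 stood at 14.2, 13.9 and 19.2 FPKM in KO Wnt5a, against 10.1, 11.5 and 10.9 FPKM in KO Ctrl (0.49, SE 0.16, adjusted p = 0.215). Cd74 stood at 5.11, 3.41 and 3.12 FPKM in KO Wnt5a, against 1.10, 2.41 and 2.34 FPKM in KO Ctrl (0.74, SE 0.30, adjusted p = 0.368). With H2-DMb2, 3 of 9 members had all KO Wnt5a values above those of KO Ctrl, where this held for 10.1% of all genes. H2-DMb2 had 0 libraries at 1 FPKM or more in either group and passed the filter through the reserve libraries. The difference between the Wnt5a effects in the genotypes was called for 0 of 9 members, where 0.07% of all genes were called, and 0 had an unadjusted p below 0.05. Its values lay between -0.75 (H2-Aa, SE 0.44) and 0.32 (H2-Oa, SE 0.37). None of the 4 pathway lists had a call in the comparisons that use Wnt5a libraries.

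Set in order of mean FPKM, H2-DMa led in KO Wnt5a (41.5), KO Ctrl (36.9), Wnt5a (36.3) and WT (36.6), and its 12 values in these groups, from 31.7 to 45.8 FPKM, overlapped among the groups. H2-Ab1 led in KO Reserve with a mean of 70.1 ± 11.1 FPKM (SD, n = 3) and Cd74 in WT Reserve with 227 ± 15.6 FPKM (SD, n = 3). H2-DMb2 was the scarcest tested member in each group except KO Reserve, where H2-Eb1 was, and Ciita was last in all 6. In KO Reserve the ranges of H2-Oa and H2-DMb1, neighbours in the order, overlapped, as did those of H2-Eb1 and H2-DMb2. In WT the 3 members H2-Oa, H2-Aa and H2-Eb1, with means of 2.00, 1.98 and 1.97 FPKM, could not be put in order.

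Across the 18 libraries the pairwise Pearson r between tested members on the log2 scale had a median of 0.886, with a lowest value of 0.034 and a highest of 0.953. Over the 12 libraries without the reserve label the median was 0.253, the lowest value -0.481 and the highest 0.867. Among the genes most like the mean profile of Cd74, H2-Aa, H2-Ab1 and H2-Eb1 over 18 libraries were Pld4 (r = 0.985), Kmo (0.981), Cd247 (0.974) and Dusp1 (0.971). H2-DMa, which was not in the profile, had an r of 0.951 with it and H2-DMb1 an r of 0.379. Pld4, a phospholipase D family exonuclease, stood at 1.19, 0.820 and 0.566 FPKM in KO Reserve, against 9.13, 5.27 and 7.13 FPKM in WT Reserve, and at 0.503 FPKM or less elsewhere. Dusp1, a phosphatase of MAP kinases, stood at 22.4, 18.4 and 13.1 FPKM in KO Reserve, against 94.1, 78.3 and 86.9 FPKM in WT Reserve, and averaged 3.59 to 4.71 FPKM in the other groups. Over the 12 libraries without the reserve label the genes most like the profile were others, Uqcrc2 (0.928), Imp4 (0.899), Uqcrc1 (0.890), Ndufs1 (0.858) and Tspan4 (0.856), of which Uqcrc2, Uqcrc1 and Ndufs1 encode subunits of the mitochondrial respiratory chain. These libraries share their normalization and, within a group, their source, so the coefficients are descriptions.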

How the data were processed

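RNA was measured in 18 libraries of sorted mouse LT-HSC, made with the SMARTer ultra low input kit and Nextera chemistry per the labels' protocols, which keep no strand. The authors deposited 1 table of 44349 genes with a value per library, read here as FPKM because the values behave as fragments per length and depth, since the header names no unit. CASAVA 1.8.2, TopHat2 2.0.10 and Cufflinks on mm10 are listed in the submitters' processing notes. The annotation release used for counting is not given in the sources used here. There were 33 missing values, and the 16 genes with one were left out. Symbols and positions came from GENCODE M21 (43938 genes matched, 411 not), and promoter windows from RefSeq on GRCm38.p6.

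Groups came from the sample titles. Values were taken as log2(FPKM + 1), so fold changes of low genes are understated, and 14285 genes were kept that reached 1 FPKM in 3 or more libraries. One mean per group was fitted with limma 3.58.1 (R 4.3.3) to the 18 libraries together, with trend and robust moderation, and Benjamini-Hochberg adjusted p below 0.05 was called. Tables and figures were made with Python 3.11.15, pandas 2.3.3, numpy 2.4.6 and matplotlib 3.10.9. The fit was tested on simulated data. Depth was inferred from the smallest steps of 7045 single-transcript genes, and floors cover counting error only. Replicates within a group had a Pearson r of 0.932 to 0.968. Of each pathway list, at most 4 called genes per comparison were named, by smallest p. Some genes that this rule or the likeness rule selects are not reported here. Alternatives were other pseudocounts, filters, scales, library weights, sets of libraries, a replicate block, a minimum change, and leaving out each library. The fit on the 12 libraries without the reserve label was added after seeing the data. The members and all lists were chosen with earlier results of these data known.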

Additional observations from a re-analysis of the deposited data

Results flagged for a closer look

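The genotype difference of every tested class II gene differed between the reserve pair (KO Reserve and WT Reserve) and the pair without that label (KO Ctrl and WT), by a test of the difference itself in limma. For H2-Ab1 this call did not hold under 17 of 27 alternatives, among them median-ratio scaling and quantile normalization. The interaction, the first difference minus the second on the log2 scale, was -2.23 for Cd74 (SE 0.43), -3.85 for H2-Aa (SE 0.44), -0.71 for H2-Ab1 (SE 0.26), -2.11 for H2-Eb1 (SE 0.43) and -1.07 for H2-DMa (SE 0.17). It was -1.71 for H2-DMb1 (SE 0.23), -1.53 for H2-DMb2 (SE 0.29), -1.38 for H2-Oa (SE 0.37) and -1.56 for H2-Ob (SE 0.38). The call of H2-DMb2, which passed the filter through the reserve libraries, adds no support. The same test was called below 0 for 22.9% of all genes and above 0 for 1147 of 14285. The members' median was -1.56. Marker lists were also called in this test. The LT-HSC list, which also holds Cd34, Cd48 and Flt3, had 11 of 13 tested genes below 0 and 0 above (median -2.37). With either other scaling 9 were below 0. B cell markers had 9 of 14 below 0 and 0 above (median -1.01), or 6 with median-ratio scaling and 7 with quantile normalization. Granulocyte markers had 6 of 11 below 0 and 2 above (median -1.67), monocyte and macrophage markers 4 of 10 below 0 and 0 above, dendritic cell markers 4 of 10 below 0 and 1 above, and T and NK cell markers 2 of 5 below 0 and 0 above. Megakaryocyte markers had 2 of 8 below 0 and 0 above, erythroid markers 4 of 9 above 0 and 0 below, and mast cell and basophil markers 1 of 6 above 0 and 0 below. Their part in the class II result was not tested.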

How the results depend on the processing

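In KO Reserve against WT Reserve, every tested member kept its call in each alternative run, of which the filter on a mean of at least 5 FPKM left 7 to test, except H2-Ab1, which did not pass a minimum log2 change of 1. In KO Ctrl against WT the count of called members was 0 with no filter and 0 with only these 6 libraries, and 0 to 1 when 1 library was left out. In KO Wnt5a against Wnt5a it was 2 with library weights (Cd74 and H2-Eb1), 1 with median-ratio scaling, 1 with quantile normalization, and 0 to 1 when 1 library was left out. In Wnt5a against WT it was 3 with library weights. In KO Reserve against KO Ctrl it was 5 with a minimum log2 change of 1. The cause of these differences was not tested.

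A replicate block gave the same counts of called members, with 9 in KO Reserve against WT Reserve, 8 in KO Reserve against KO Ctrl and 1 in KO Ctrl against WT, and it called 5847 in place of 5899 genes in the first of these. Same-numbered libraries had correlations of at most 0.079 in their deviations over all tested genes. These showed no pairing by number, but deviations within groups of 3 libraries cannot exclude one.

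Counts over all genes moved more. KO Ctrl against WT gave 378 genes, 1480 with library weights, 769 with the 12 libraries without the reserve label and 231 with no filter. KO Wnt5a against Wnt5a gave 461, and 1548, 729 and 266 under these same settings. Wnt5a against WT gave 7, and 1541 with library weights, 3 with median-ratio scaling and 4 with quantile normalization. KO Wnt5a against KO Ctrl gave 146, and 77 with no filter and 72 with only these 6 libraries. KO Reserve against WT Reserve gave 5899, and 3720 with only these 6 libraries. The Wnt5a by genotype test gave 10, and 54 with library weights and 16 with no filter. Leaving out 1 library moved the counts too. KO Ctrl against WT ranged from 132 (without WT replicate 3) to 646 (without WT Reserve replicate 2), and 6 of the 18 libraries moved it by over 1.5 times. KO Wnt5a against Wnt5a ranged from 146 (without Wnt5a replicate 3) to 698 (without WT Reserve replicate 2). KO Wnt5a against KO Ctrl ranged from 65 (without KO Wnt5a replicate 3) to 209, Wnt5a against WT from 3 to 16 (without Wnt5a replicate 3), and the Wnt5a by genotype test from 7 to 22 (without Wnt5a replicate 2). The shares of all genes called in these comparisons rest on these counts.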
